A study of Homo sapiens with 6 samples.

Results

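The long intergenic noncoding RNAs that A549 cells expressed were examined in 6 RNA-seq libraries, 3 from A549-GFP cells and 3 from A549-TIPARP cells. A549 is an established cell line from a human lung adenocarcinoma. The A549-TIPARP line was made by retroviral transduction with a pMXs vector holding the coding region of TIPARP, the A549-GFP line with the same vector holding GFP. The study calls the A549-TIPARP cells a stable line and does not say so of the A549-GFP cells. No other agent or time point is in the labels. The methods describe 1 line for each vector, so effects of the line and of the transgene cannot be told apart. TIPARP is a mono-ADP-ribosyltransferase that is induced through the aryl hydrocarbon receptor. An entry was taken as a member when its symbol was LINC followed by digits alone and its TPM was above 2 in at least 1 of the 6 libraries. TPM gives the share of the transcripts of a library that a gene takes, after correction for length, so levels of different genes can be compared. Of 1802 LINC entries among the 53826 entries of the tables, 168 met the rule. The whole set of entries above 2 TPM in at least 1 library held 13181. The members were chosen by their levels in the same libraries, so counts of members are given as descriptions. Where it was taken, the share of all 13181 entries that did the same stands beside them.

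Long intergenic noncoding RNAs are mostly capped, spliced and polyadenylated transcripts made by RNA polymerase II, without a long open reading frame. They are named LINC with a running number until a function is assigned. Known ones act on neighbouring genes, as scaffolds for protein complexes in the nucleus, or as binding sites for microRNAs or proteins in the cytoplasm, and some transcripts with a LINC symbol were later found to encode small proteins. Many are made at low levels and in few cell types, and in lung adenocarcinoma several have been studied for effects on growth and invasion. The libraries were made from polyadenylated RNA, so noncoding transcripts without a poly(A) tail are not covered.

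TIPARP itself stood at 6.79, 11.4 and 3.68 TPM in the A549-GFP libraries and at 131, 90.5 and 123 TPM in the A549-TIPARP libraries, each in the order of replicates 1, 2 and 3, and so followed the labels. All values by library below keep that order. The 5 epithelial markers EPCAM, KRT8, KRT18, KRT19 and CDH1 summed to 8341 to 21244 TPM in A549-GFP and 16520 to 19963 TPM in A549-TIPARP, nearly all from KRT8 and KRT18, with the lowest sum in A549-GFP replicate 2. KRT19, a keratin of simple epithelia, ranged from 2.54 to 5.36 TPM in A549-GFP and from 10.9 to 19.2 TPM in A549-TIPARP, with no overlap. All 5 endothelial markers, PECAM1, VWF, CDH5, KDR and TEK, were listed at the lowest value in all 6 libraries. So were 4 of 5 mesenchymal markers (all but COL1A1, at most 2.56 TPM) and, of 4 leukocyte markers, PTPRC and CD3E. The leukocyte list summed to 28.1 to 73.1 TPM in A549-GFP, highest in replicate 2, and to 28.1 to 41.7 TPM in A549-TIPARP. A549-GFP replicate 2 stood apart, and its log2 TPM exceeded that of the other A549-GFP libraries by a median of 0.38 over all 13181 entries. Values without it are given for the counts and medians that it moved most, some as alternatives added after the data were seen. The tables hold no read counts, so the depth of the libraries is unknown and no counting error was computed. Every TPM below 1 is listed as 1, which is called the floor here.

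The LINC members were low in level. Their median level, as the geometric mean TPM over the 6 libraries, was 2.86, against 14.3 TPM for all 13181 entries. Of the 168 members, 28 were above 10 TPM by that mean, 77 were at 2 to 10 TPM and 63 were below 2 TPM. Together they took 0.0976% to 0.161% of the TPM of a library, and the 10 most abundant members made up 35.5% to 43.1% of that sum. A further 71 LINC entries were above the floor in some library without passing 2 TPM, and 1563 were at the floor in all 6. The members nearest the limit were LINC01783, LINC01530 and LINC00319, with highest values of 2.04, 2.06 and 2.06 TPM. LINC02352, LINC00887 and LINC00337 lay just outside it, with highest values of 1.996, 1.99 and 1.97 TPM.

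The most abundant member was LINC02043, a transcript of chromosome 3 that lies 4398 bp from RFC4. LINC02043 was listed at 70.1, 138 and 94.0 TPM in A549-GFP and at 85.2, 88.9 and 93.8 TPM in A549-TIPARP. The A549-TIPARP values lay within the A549-GFP range. Next came LINC00998, now SMIM30, which encodes a small membrane protein of the endoplasmic reticulum, at 64.2, 103 and 58.2 TPM in A549-GFP and 57.8, 63.7 and 68.4 TPM in A549-TIPARP. LINC01623 followed at 48.2, 72.6 and 60.2 TPM in A549-GFP and 60.0, 65.2 and 71.0 TPM in A549-TIPARP. LINC01578, now CHASERR, is a noncoding RNA that restrains the chromatin remodeller CHD2 beside it, and stood at 41.1, 70.2 and 40.1 TPM in A549-GFP and 44.3, 45.7 and 46.8 TPM in A549-TIPARP. CHD2 itself, 1577 bp away, was at 15.9, 26.5 and 12.9 TPM in A549-GFP and 15.8, 16.1 and 14.3 TPM in A549-TIPARP, and both genes were highest in A549-GFP replicate 2. The next 6 by geometric mean TPM were LINC00116 at 34.5, LINC01137 at 30.2, LINC02212 at 25.9, LINC00467 at 23.9, LINC00294 at 23.0 and LINC02313 at 22.3. LINC00116, now MTLN, encodes a small protein of mitochondrial membranes, and LINC01137, now LITATS1, is known as an inhibitor of TGF-beta signalling.

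The order of these levels was firm only in its upper steps. LINC02043 was above LINC00998 in 6 of 6 libraries, LINC01623 above LINC01578 in 6 of 6 and LINC01578 above LINC00116 in 6 of 6. LINC00998 was above LINC01623 in only 2 of 6 libraries, with a mean gap of 0.12 and an SD of 0.26 log2 units. From LINC00116 down, each mean gap between neighbours in the order was smaller than its SD, and neighbours kept the order in 3 to 5 of 6 libraries. Between the lines, the differences of the mean log2 TPM of the 10 ran from -0.41 for LINC02313 to 0.23 for LINC02212, and none passed an unadjusted p of 0.05 in limma. They ran, without A549-GFP replicate 2, from -0.44 for LINC02313 to 0.50 for LINC02212.

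**Figure D1:**
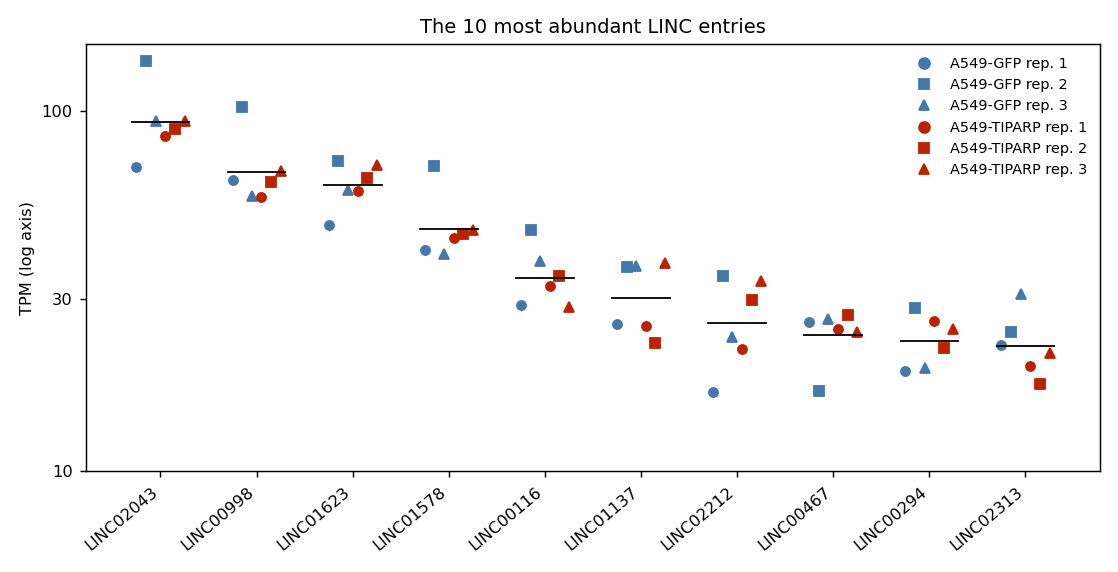
TPM of the 10 most abundant LINC members on a log axis, with 1 point per library (blue A549-GFP, red A549-TIPARP, shapes for replicates) and a line at the geometric mean of the 6. The levels fall from 93.0 TPM for LINC02043 to 22.3 TPM for LINC02313, and A549-GFP replicate 2 is the highest point of LINC02043, LINC00998, LINC01623, LINC01578, LINC00116, LINC02212 and LINC00294.

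Many members owed their place to a single library. Above 2 TPM in all 6 libraries were 72 members, while 38 were above it in 1 library, which for 31 of the 38 was A549-GFP replicate 2. The members above 2 TPM numbered 99, 138 and 96 in A549-GFP replicates 1 to 3 and 108, 106 and 120 in A549-TIPARP replicates 1 to 3. Above the limit in at least 1 library of each line were 119 members, 36 only in A549-GFP and 13 only in A549-TIPARP. These counts by library and line were not taken over all 13181 entries, so nothing particular to the LINC members is read from them. A549-GFP replicate 2 held the highest value of 107 members, or 63.7%, against 52.0% of all 13181 entries. A549-TIPARP replicate 3 held that of 25 members, or 14.9%, against 11.4% of all entries. Over the members, A549-GFP replicate 2 exceeded the other A549-GFP libraries by a median of 0.79 log2 units, and 64 members, or 38.1%, were more than 2-fold above them, against 2372 of all 13181 entries. The 31 members above 2 TPM in that library alone entered the list through it. The summed TPM of the members was 976, 1609 and 993 in A549-GFP and 1056, 1085 and 1178 in A549-TIPARP. The spread within a line was also wider for the members than for all entries, with a median SD of log2 TPM of 0.57 against 0.39 in A549-GFP and of 0.25 against 0.19 in A549-TIPARP (n = 3 libraries each).

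**Figure D2:**
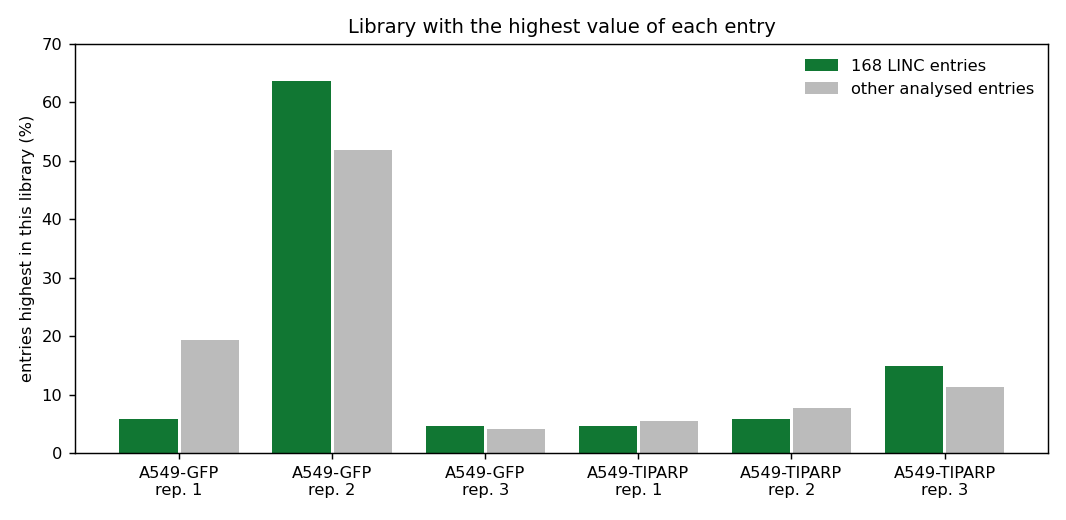
Percent of entries whose highest TPM was in each library, for the 168 LINC members (green) and the other analysed entries (grey). The largest pair of bars is that of A549-GFP replicate 2, at 63.7% of the members and 51.8% of the other entries.

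The comparison of A549-TIPARP with A549-GFP asked which transcripts differed when TIPARP was overexpressed. For the fold change, the deposited log2 TPM was averaged within each line and subtracted, and limma was fitted to log2(TPM + 1) over all 13181 entries with Benjamini-Hochberg adjustment. A limma p is unadjusted unless it is called adjusted. By fold change, 6 members, or 3.57%, were more than 2-fold higher in A549-TIPARP, against 1.53% of all entries. More than 2-fold lower were 2 members, or 1.19%, against 0.432% of all entries. With a pseudocount of 1 before the log, the 6 became 1, LINC00920, and with a pseudocount of 0.1 they became 3, while the 2 became 0 and 2. No member passed an adjusted p of 0.05 in limma, which 0.0152% of all entries did. An unadjusted limma p under 0.05 was reached by 9 members that were higher, or 5.36%, against 2.97% of all entries, and by 0 members that were lower, against 0.88% of all entries. The higher ones numbered 19, or 11.3%, without A549-GFP replicate 2, against 9.30% of all entries, and 5, or 2.98%, without A549-GFP replicate 1 or A549-TIPARP replicate 3, against 2.22% and 1.84% of all entries. The lower ones numbered 6, or 3.57%, without A549-GFP replicate 3, against 5.60% of all entries. All 3 A549-TIPARP libraries lay above all 3 A549-GFP libraries for 13 members, or 7.74%, against 5.36% of all entries, and below them for 4 members, or 2.38%, against 3.54%. With A549-GFP replicate 2 set aside, the 2 counts were 44, or 26.2%, against 21.2% of all entries, and 7, or 4.17%, against 6.42%. Of the 9 members that were higher with such a p, 7 were above 2 TPM only in A549-TIPARP, as were 4 of the 6 past 2-fold and 9 of the 13 above in every library. These entered the list through the line in which they were high, so the rule itself favoured a difference in that direction, and their p-values are given as descriptions. Likewise, 3 of the 4 below in every library were above 2 TPM only in A549-GFP. The part of the wider spread of the members in these counts was not tested.

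Most members differed little. In bulk RNA, a difference in every cell and one in a share of the cells cannot be told apart. The difference was within 1.5-fold for 143 members, or 85.1%, against 91.3% of all entries, and for 81.0% against 88.3% without A549-GFP replicate 2. The mean was lower in A549-TIPARP for 103 members and higher for 65, so that 61.3% were lower, against 59.9% of all entries. The median difference was -0.10 log2 units for the members and -0.07 for all entries. Without A549-GFP replicate 2, it was 0.14 for the members and 0.05 for all entries, so the sign of the median rested on that library. The mean was then lower for 42 of the 168 members, or 25%, against 42.6% of all entries. The count of members more than 2-fold higher was then 9, or 5.36%, against 2.91% of all entries, and that of members more than 2-fold lower was 0, against 0.296%. Of the 9, 4 were among the 6 counted with all libraries. Without A549-TIPARP replicate 3, 2 members were more than 2-fold higher.

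**Figure D3:**
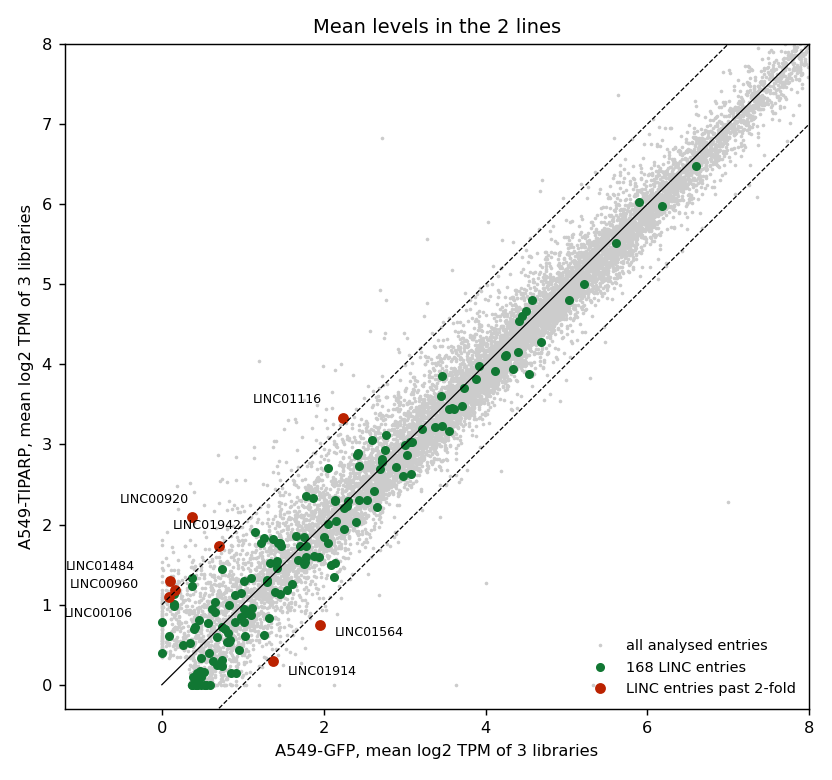
Mean log2 TPM of the 3 A549-TIPARP libraries against that of the 3 A549-GFP libraries, for all analysed entries (grey) and the LINC members (green), with the 8 members past 2-fold in red and labelled. The solid line marks equal levels and the dashed lines 2-fold, and 7 of the 8 red points lie at low levels, where values are close to the floor of 1 TPM.

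The members were lower in level than all entries, so shares were also taken at matched levels, an addition made after the data were seen. Of the 28 members above 10 TPM, none was past 2-fold or below a limma p of 0.05, and the differences ran from -0.65 to 0.39 with a median of -0.13. Of all entries above 10 TPM, 0.639% were past 2-fold and 2.89% had such a p, and nothing is read from 0 of 28. Of the 77 members at 2 to 10 TPM, 4 were past 2-fold, or 5.19% against 3.37% of all entries at that level, and 3 had an unadjusted p under 0.05, or 3.90% against 4.67%. Of the 63 members below 2 TPM, 4 were past 2-fold, or 6.35% against 5.69%, and 6 had such a p, or 9.52% against 7.23%, while their median difference was -0.23. At matched levels the shares of the members were thus near those of all entries. The 72 members above 2 TPM in all 6 libraries had a median of -0.10, with 22 higher and 50 lower, and 1 of them, LINC01116, was past 2-fold. The medians without A549-GFP replicate 2 were 0.12 above 10 TPM, 0.15 at 2 to 10 TPM, 0.13 below 2 TPM and 0.13 for the 72, of which 57 were then higher and 15 lower, and the members above 10 TPM ran from -0.44 to 0.76.

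LINC00920 differed most. This gene of 2 exons at chr16:66408524-66410901, on the plus strand of hg38, also carries the names LINRIS and CALIC and makes a transcript of 2155 bases. It was listed at 1.41, 1.54 and 1 TPM in A549-GFP and at 4.26, 4.01 and 4.56 TPM in A549-TIPARP. The lines did not overlap, and the A549-TIPARP libraries were close together. LINC00920 was above 2 TPM in A549-TIPARP alone, so its test used values that also made it a member. The mean was 3.30-fold higher in A549-TIPARP, or 1.72 log2 units. In limma, the difference on the log2(TPM + 1) scale was 1.19 ± 0.21 (SE), with an unadjusted p of 0.000349 and an adjusted p of 0.256. Over the 6 comparisons that each lacked 1 library, the difference stayed between 1.54 and 1.85 log2 units, and LINC00920 was the only one of the 8 that stayed past 2-fold in all 6 of these. In A549-GFP 1 library was at the floor, and a pseudocount of 1 took the difference from 1.72 to 1.19. The nearest coding gene, 3740 bp away, is CDH5, which encodes the endothelial cadherin VE-cadherin. CDH5 was at the floor in all 6 libraries.

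LINC01116, also known as TALNEC2, lies at chr2:176611437-176637609 on the minus strand, on the same chromosome arm as the HOXD genes, and has been studied for effects on tumour cell growth and invasion. It was listed at 4.24, 7.17 and 3.44 TPM in A549-GFP and at 9.88, 8.98 and 11.5 TPM in A549-TIPARP. The lines did not overlap, and of the 3 A549-GFP libraries replicate 2 came nearest to A549-TIPARP. The mean was 2.14-fold higher, and the limma difference was 0.94 ± 0.27 (SE), with a p of 0.00770 and an adjusted p of 0.856. The difference was 1.09 log2 units with all libraries and 0.87 to 1.40 with each left out in turn. The nearest coding gene, MTX2, a mitochondrial import protein 273412 bp away, was at 74.5 to 98.8 TPM in A549-GFP and 72.9 to 78.4 TPM in A549-TIPARP, with a limma p of 0.304.

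The other 4 members that were more than 2-fold higher, like LINC00920, had A549-GFP values close to the floor, and their folds depend on it. LINC01484, at chr5:173707599-173746209 on the minus strand, was listed at 1, 1 and 1.24 TPM in A549-GFP and at 2.64, 1.63 and 3.46 TPM in A549-TIPARP. Its mean was 2.29-fold higher, with a limma p of 0.0150 and an adjusted p of 0.966. LINC00960, at chr3:75672281-75679303 on the plus strand, was at 1.06, 1.30 and 1.01 TPM in A549-GFP and 2.11, 2.23 and 2.53 TPM in A549-TIPARP. Both were higher in each A549-TIPARP library than in any A549-GFP library. For LINC00960 the fold was 2.04, the limma p 0.0121 and the adjusted p 0.964. Its nearest coding gene, FRG2C, 5108 bp away, was at the floor in all libraries.

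LINC01942, at chr5:173689459-173705849 on the plus strand, was at 2.28, 1 and 1.93 TPM in A549-GFP and 2.70, 2.39 and 5.75 TPM in A549-TIPARP. The lines did not overlap, but A549-TIPARP replicates 1 and 2 were close to A549-GFP replicate 1. The fold was 2.04 with a limma p of 0.0568, and without A549-GFP replicate 2 the difference went from 1.03 to 0.67 log2 units. The lowest difference with 1 library left out was 0.63. BOD1, a protein of chromosome alignment and the nearest coding gene to both LINC01942 and LINC01484, was at 38.6 to 56.6 TPM in A549-GFP and 42.8 to 48.8 TPM in A549-TIPARP. LINC00106 lies in the pseudoautosomal region of the sex chromosomes, and the chromosome X entry was used. It was at 1.20, 1 and 1 TPM in A549-GFP and 1.30, 2.66 and 2.83 TPM in A549-TIPARP, so that A549-TIPARP replicate 1 was hardly above A549-GFP replicate 1. The fold was 2.01, the limma p 0.0367 and the adjusted p 0.994. It stayed past 2-fold in 2 of the 6 comparisons that each lacked 1 library, and its limma p stayed under 0.05 in 1 of the 6. ASMTL, the nearest coding gene at 3727 bp, was at 10.1, 18.8 and 17.7 TPM in A549-GFP and 21.2, 20.0 and 29.5 TPM in A549-TIPARP, with a limma p of 0.0633.

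Both members that were more than 2-fold lower rested on A549-GFP replicate 2. LINC01564, at chr6:53628380-53631394 on the plus strand, was at 1.99, 9.49 and 3.07 TPM in A549-GFP and 2.42, 1.93 and 1 TPM in A549-TIPARP. LINC01914, at chr2:41931599-41933723 on the minus strand, was at 1.26, 7.38 and 1.86 TPM in A549-GFP and 1.63, 1.04 and 1.11 TPM in A549-TIPARP. The lines overlapped for both, and replicate 2 was the highest library in each case. The folds were 2.31 and 2.10, with limma p of 0.0805 and 0.129. Without A549-GFP replicate 2, the differences went from -1.21 to -0.56 log2 units for LINC01564 and from -1.07 to -0.31 for LINC01914. The nearest coding gene to LINC01564, KLHL31, was at the floor in all libraries. PKDCC, a secreted protein kinase and the nearest to LINC01914, was at 96.1, 225 and 112 TPM in A549-GFP and 168, 134 and 228 TPM in A549-TIPARP.

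**Figure D4:**
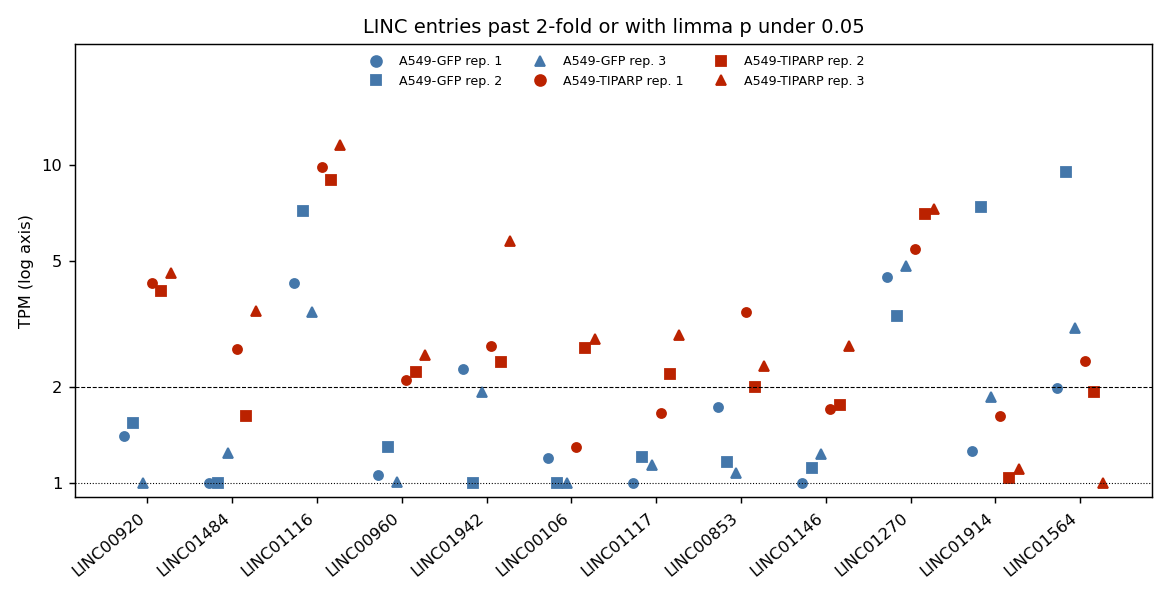
TPM on a log axis of the 12 LINC members that were past 2-fold or had an unadjusted limma p under 0.05, with 1 point per library (blue A549-GFP, red A549-TIPARP, shapes for replicates), a dotted line at the floor of 1 TPM and a dashed line at 2 TPM. The red points of LINC00920 lie at 4.01 to 4.56 TPM with the blue points at 1 to 1.54 TPM, while for LINC01914 and LINC01564 only A549-GFP replicate 2 stands well above the rest.

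A further 4 members had an unadjusted limma p under 0.05, all higher in A549-TIPARP, with an adjusted p of 0.994 each. With each library left out in turn, such a p held in 3 of 6 fits for LINC01117 and 4 of 6 for LINC00853. It held in 1 of 6 for LINC01146 and 1 of 6 for LINC01270. LINC01117 was at 1, 1.21 and 1.14 TPM in A549-GFP and 1.66, 2.20 and 2.92 TPM in A549-TIPARP, a 1.98-fold difference with a limma p of 0.0246. LINC00853, at chr1:47179250-47180339, was at 1.73, 1.16 and 1.07 TPM in A549-GFP and 3.45, 2.00 and 2.33 TPM in A549-TIPARP, a 1.95-fold difference with a limma p of 0.0306. Neither overlapped between the lines. LINC01146, now HISLA and known for stabilising HIF-1 alpha, was at 1, 1.12 and 1.23 TPM in A549-GFP and 1.71, 1.76 and 2.70 TPM in A549-TIPARP, a 1.81-fold difference with a limma p of 0.0424. LINC01270, at chr20:50292720-50314919, was at 4.43, 3.34 and 4.82 TPM in A549-GFP and 5.43, 7.02 and 7.27 TPM in A549-TIPARP, a 1.57-fold difference with a limma p of 0.0420. Of the 13 members that were higher in every A549-TIPARP library, these 4 and the 6 above make up 10, and the others were LINC00937, LINC01659 and LINC01842. LINC01659 did not leave the floor in A549-GFP and was at 1.48, 1.56 and 2.21 TPM in A549-TIPARP. Of the 13, 8 had at least 1 A549-GFP library at the floor. The 4 members that were lower in every A549-TIPARP library were LINC02313, LINC00526, LINC01119 and LINC01530, and their limma p ran from 0.0774 for LINC00526 to 0.387 for LINC01530.

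A set list of well-known LINC RNAs and small-protein genes, which left out LINC01146, held 15 members, and of these LINC01116 alone had an unadjusted limma p under 0.05. LINC00339, LINC01234, LINC00673 and LINC00847 were the most abundant of these beside SMIM30, MTLN and LINC00467. LINC00467 was at 25.9, 16.7 and 26.4 TPM in A549-GFP and 24.8, 27.2 and 24.4 TPM in A549-TIPARP, and here A549-GFP replicate 2 was the lowest library. LINC00673, which has been linked to turnover of the phosphatase PTPN11, was at 13.3, 22.5 and 10.7 TPM in A549-GFP and 13.6, 14.4 and 14.1 TPM in A549-TIPARP. LINC01234, a transcript studied in lung and gastric cancer, was at 18.1, 25.2 and 15.0 TPM in A549-GFP and 16.3, 18.2 and 17.5 TPM in A549-TIPARP. The lines overlapped in each case. LINC00941, which has been studied in invasion of epithelial tumours, was at 2.77, 5.62 and 1.82 TPM in A549-GFP and 2.42, 2.21 and 2.55 TPM in A549-TIPARP, with a limma p of 0.396. BRD3OS (LINC00094) is given with the coding members below. For the remaining members of the list, LINC00963, LINC00174, LINC01133, LINC00667, LINC00662, LINC00339 and LINC00847, the differences ran from -0.44 for LINC00662 to 0.34 for LINC00963, and the limma p from 0.141 to 0.682. When A549-GFP replicate 2 was left out, these differences ran from -0.23 for LINC00662 to 0.45 for LINC00847.

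By their present RefSeq annotation, 159 of the 168 members are long noncoding RNAs, 7 are protein-coding genes and 1, LINC01869, is a transcribed pseudogene, while LINC01296 had no entry. The 7 coding members are SMIM30, MTLN, BRD3OS (LINC00094), C13orf42 (LINC00371), LASP1NB (LINC00672), SMIM31 (LINC01207) and C10orf143 (LINC00959). Their means were lower in A549-TIPARP in 7 of 7, with BRD3OS almost equal, a median difference of -0.20 and a lowest of -0.39 log2 units, and none had a limma p under 0.05. Of all entries, 59.9% were lower. Without A549-GFP replicate 2, 1 of the 7, MTLN, was lower and 6 were higher, with a median of 0.23. SMIM30 is given above. MTLN was at 28.9, 46.9 and 38.3 TPM in A549-GFP and 32.8, 34.9 and 28.5 TPM in A549-TIPARP. The lines overlapped, with A549-GFP replicate 2 highest. BRD3OS, on the strand opposite to the chromatin reader gene BRD3, was at 5.32, 9.80 and 5.23 TPM in A549-GFP and 6.89, 5.42 and 7.28 TPM in A549-TIPARP. SMIM31, another gene of a small membrane protein, was at 1.77, 7.17 and 1.99 TPM in A549-GFP and 1.59, 1.63 and 4.53 TPM in A549-TIPARP. Without A549-GFP replicate 2, the differences were 0.05 for SMIM30 (LINC00998), -0.06 for MTLN (LINC00116), 0.30 for BRD3OS (LINC00094), 0.28 for SMIM31 (LINC01207), 0.23 for C13orf42 (LINC00371), 0.34 for LASP1NB (LINC00672) and 0.10 for C10orf143 (LINC00959).

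Several members lie beside each other in the genome, and their levels can be set side by side. LINC01116 and LINC01117 start 145 bp apart on opposite strands of chromosome 2, LINC01117 at chr2:176637754-176655958 on the plus strand. Both were higher in each A549-TIPARP library than in any A549-GFP library, and in each library LINC01116 was the more abundant. LINC01942 and LINC01484 end 1750 bp apart on chromosome 5, transcribed towards each other. Both of these were higher in each A549-TIPARP library than in any A549-GFP library, and both were highest in A549-TIPARP replicate 3. On chromosome 20, LINC01270 overlaps LINC01271 on the opposite strand, at chr20:50310711-50321342. LINC01271 was at 2.34, 1.62 and 3.38 TPM in A549-GFP and 2.64, 3.83 and 3.93 TPM in A549-TIPARP, and the lines overlapped. The kit marks strand, but the sources used here do not say whether the counting used it, so reads of this pair cannot be told apart.

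In the adjacent pairs of chromosomes 18 and 1, both members had a lower mean in A549-TIPARP with all libraries. Differences within a pair were not tested. LINC00526 and LINC00667 start 71 bp apart on opposite strands of chromosome 18. LINC00526 was at 1.93, 2.69 and 1.30 TPM in A549-GFP and 1.21, 1 and 1.11 TPM in A549-TIPARP, with no overlap, while LINC00667 was at 6.79, 15.0 and 4.78 TPM in A549-GFP and 6.12, 4.81 and 7.60 TPM in A549-TIPARP, with overlap. Neither had an unadjusted limma p under 0.05. LINC00115 and LINC01128 start 69 bp apart on chromosome 1. LINC00115 was at 2.43, 1.94 and 2.89 TPM in A549-GFP and 2.08, 1.76 and 1 TPM in A549-TIPARP, and LINC01128 at 2.38, 3.47 and 1.89 TPM and at 1.75, 2.03 and 1.57 TPM. Both overlapped between the lines, and their highest libraries were A549-GFP replicate 3 and replicate 2.

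**Figure D5:**
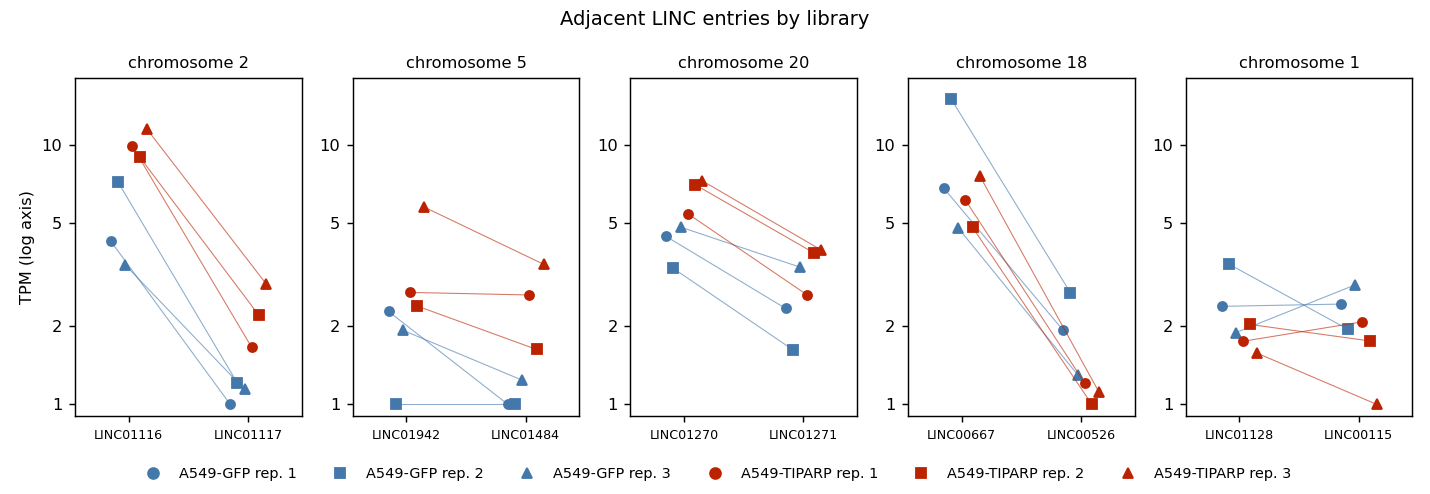
TPM on a log axis of 5 pairs of LINC members that lie beside each other, with lines joining the values of 1 library (blue A549-GFP, red A549-TIPARP, shapes for replicates). For LINC01116 with LINC01117 and for LINC01942 with LINC01484 the red points lie above the blue ones at both genes, while the colours are mixed for LINC00667 and LINC01128.

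Most members lie away from coding genes. Of the 167 with coordinates, 139 were intergenic, 19 overlapped a coding gene and 9 started within 1000 bp of a coding gene on the opposite strand without overlap. For 119 members the nearest coding gene was itself above 2 TPM in at least 1 library. Member and neighbour differed between the lines in the same direction in 72 of these 119, and across the 119 pairs, which share libraries and in part neighbours, Pearson's r of the differences was -0.03 and Spearman's rho 0.01. Leaving out A549-GFP replicate 2, the direction was the same in 67 of 119, with r 0.08 and rho 0.07. Among 16 members that start within 1000 bp of a coding start on the opposite strand, 15 had an analysed partner, and the direction was the same in 6 of 15, or in 8 of 15 without A549-GFP replicate 2. These pairs included LINC01137 with ZC3H12A, an RNase that degrades inflammatory mRNAs, 137 bp away. LINC01137 was at 25.6, 36.9 and 37.0 TPM in A549-GFP and 25.3, 22.7 and 37.9 TPM in A549-TIPARP, and ZC3H12A at 65.9, 103 and 53.2 TPM and at 39.8, 32.9 and 62.0 TPM. The lines overlapped for both. ZC3H12A had a limma p of 0.0478 and an adjusted p of 0.994, and its difference of -0.72 log2 units was -0.45 without A549-GFP replicate 2.

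With all libraries, a single neighbour was past 2-fold, FBLN1, and it was singled out after its values were seen. FBLN1 encodes fibulin-1, a protein of the extracellular matrix, and lies 3297 bp from LINC01589. LINC01589 was at 12.1, 66.5 and 15.4 TPM in A549-GFP and 14.1, 14.0 and 16.2 TPM in A549-TIPARP. FBLN1 was at 35.0, 4.29 and 33.1 TPM in A549-GFP and 42.0, 40.8 and 30.7 TPM in A549-TIPARP. A549-GFP replicate 2 was thus the highest library for LINC01589 and the lowest for FBLN1, and neither gene had an unadjusted limma p under 0.05. Without that library, the difference of FBLN1 went from 1.14 to 0.14 log2 units and that of LINC01589 from -0.65 to 0.11. The neighbours past 2-fold were then 2 others, PDZK1IP1 beside LINC00853 at 1.13 and ARRDC4 beside LINC00923 at 1.03. CEBPB, an inflammatory transcription factor chosen in the same way, is the nearest coding gene to LINC01273, LINC01270 and LINC01271. CEBPB was at 175, 350 and 180 TPM in A549-GFP and 126, 149 and 142 TPM in A549-TIPARP, with no overlap, a difference of -0.68 log2 units, or -0.35 without A549-GFP replicate 2, a limma p of 0.0340 and an adjusted p of 0.994. LINC01273, 13912 bp from it, was at 8.10, 1.91 and 14.1 TPM in A549-GFP and 7.40, 9.06 and 8.67 TPM in A549-TIPARP, with A549-GFP replicate 2 the lowest library.

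The promoter windows of a few members that were past 2-fold or share a start region are shown because the pairs above start from the same stretch. Each runs from 250 bases before to 50 bases after the start of the gene, from RefSeq on GRCh38.p14. Capitals mark GCGTG, the core that the aryl hydrocarbon receptor binds, and ACGTG, the core of hypoxia response elements, on either strand, so that CACGC is GCGTG read on the other strand. The LINC00920 window is at chr16:66408274-66408573 on the plus strand, that of LINC01116 at chr2:176637560-176637859 on the minus strand, that of LINC00960 at chr3:75672031-75672330 on the plus strand and that of LINC00526 at chr18:5237980-5238279 on the minus strand. The LINC01116 window also holds the start of LINC01117, and the LINC00526 window that of LINC00667.
LINC00920: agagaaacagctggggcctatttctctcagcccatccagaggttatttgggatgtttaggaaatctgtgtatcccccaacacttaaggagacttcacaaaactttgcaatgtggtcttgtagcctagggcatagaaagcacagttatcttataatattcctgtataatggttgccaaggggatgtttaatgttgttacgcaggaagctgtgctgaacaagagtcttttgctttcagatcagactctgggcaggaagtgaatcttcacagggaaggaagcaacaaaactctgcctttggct
LINC01116: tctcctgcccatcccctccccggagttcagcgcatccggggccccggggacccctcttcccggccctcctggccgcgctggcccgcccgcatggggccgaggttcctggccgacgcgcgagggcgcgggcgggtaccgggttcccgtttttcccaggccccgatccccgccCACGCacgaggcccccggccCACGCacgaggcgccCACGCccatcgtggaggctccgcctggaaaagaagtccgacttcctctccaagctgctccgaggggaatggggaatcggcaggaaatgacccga
LINC00960: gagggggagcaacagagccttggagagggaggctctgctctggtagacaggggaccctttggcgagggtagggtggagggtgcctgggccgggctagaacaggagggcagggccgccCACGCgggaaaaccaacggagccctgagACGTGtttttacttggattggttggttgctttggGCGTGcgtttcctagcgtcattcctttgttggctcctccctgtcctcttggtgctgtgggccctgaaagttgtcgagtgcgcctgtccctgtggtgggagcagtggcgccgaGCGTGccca
LINC00526: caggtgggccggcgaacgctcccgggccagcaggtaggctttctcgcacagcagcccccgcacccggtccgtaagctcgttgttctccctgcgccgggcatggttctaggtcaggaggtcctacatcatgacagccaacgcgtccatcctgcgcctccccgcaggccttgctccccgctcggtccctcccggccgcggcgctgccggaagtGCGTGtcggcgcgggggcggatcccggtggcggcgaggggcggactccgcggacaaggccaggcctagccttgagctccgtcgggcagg

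These windows differed in composition. The LINC01116 window had a GC content of 72.7% with 34 CpG dinucleotides and held GCGTG 3 times. The LINC00526 window had a GC content of 72.0% with 35 CpG and held it 1 time. The LINC00920 window had a GC content of 43.7% with 1 CpG and no match to either core. LINC00960 had 62.7% with 15 CpG, 3 matches to GCGTG and 1 to ACGTG. Across all 27305 promoter windows of the same length, the medians were 58.3% GC and 14 CpG, and across the 129 members with a window they were 61.0% and 16. The medians over the 10368 windows of analysed entries were 65.3% and 26.

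The cores were common outside these windows as well. GCGTG was held by 36.3% of all windows, 51.0% of those of analysed entries and 41.1% of those of the members (53 of 129). Of the 4 members more than 2-fold higher that had a window, 2 held it, LINC01116 and LINC00960, while LINC00920 and LINC01942 did not. Of the 9 members above in every A549-TIPARP library that had a window, 6 held it. ACGTG was held by 21.6% of all windows, 27.1% of those of analysed entries and 30.2% of those of the members, by 1 of the 4 and by 1 of the 9. TGACNNNGC, the core of antioxidant response elements, was held by 13.6%, 15.3% and 14.0%, by 0 of the 4 and by 1 of the 9. The 3 motifs were searched on both strands, and GCGTG and ACGTG differ in their first letter. Matches on the 2 strands may overlap. A match is a description of letters and not of binding.

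Long noncoding RNAs with other names were compared from a list of 40, of which 29 were analysed. Of these, 11 had a higher and 18 a lower mean in A549-TIPARP, so that 62.1% were lower, against 59.9% of all entries. Their median difference was -0.14 log2 units, against -0.07 for all entries. With A549-GFP replicate 2 left out, 15 of the 29, or 51.7%, were lower, against 42.6% of all entries. The median was then -0.0047, against 0.14 for the LINC members and 0.05 for all entries. None of the 29 passed 2-fold or an adjusted p of 0.05 in limma. An unadjusted p under 0.05 was reached by 2 that were lower, or 6.90%, against 0.88% of all entries. These were SNHG15 and SNHG17, both hosts of small nucleolar RNAs, with adjusted p of 0.994. SNHG15 was at 42.4, 66.9 and 42.5 TPM in A549-GFP and 37.7, 36.0 and 28.3 TPM in A549-TIPARP, with a limma p of 0.0485, and its difference of -0.55 log2 units was -0.33 without A549-GFP replicate 2. SNHG17 was at 103, 100.2 and 105 TPM in A549-GFP and 81.4, 85.7 and 64.7 TPM in A549-TIPARP, with a limma p of 0.0405. Both were lower in each A549-TIPARP library than in any A549-GFP library. Of the 29, 14 were highest in A549-GFP replicate 2, against 52.0% of all entries. NEAT1, the scaffold of paraspeckles, was at 33.7, 82.9 and 35.1 TPM in A549-GFP and 37.0, 52.3 and 65.9 TPM in A549-TIPARP.

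Genes on a list for nuclear RNA turnover and export mostly had slightly lower means in A549-TIPARP. The list of 35 symbols held the subunits of the nuclear exosome, which degrades RNA from its 3′ end, and its adaptors. It also held the cap-binding complex, poly(A) enzymes and the exporter NXF1. With them stood MTPAP, the poly(A) enzyme of mitochondria, and DIS3L, a nuclease of the cytoplasmic exosome, both with lower means in A549-TIPARP. Of the 35 symbols, some of them second names of the same gene, 31 had an entry, and all 31 were analysed. The mean was higher in A549-TIPARP for 5 and lower for 26, with a median of -0.13 and a range of -0.39 to 0.14 log2 units, so that 83.9% were lower, against 59.9% of all entries and their median of -0.07. Of the 31, 26 were again lower without A549-GFP replicate 2, with a median of -0.11, while the median of all entries was 0.05. A549-TIPARP replicate 3 was the lowest A549-TIPARP library for most of the 31. The count without that library was not taken, so how far the 26 rest on it is not known. None had an unadjusted limma p under 0.05. EXOSC10, the nuclease of the nuclear exosome, was at 48.8, 34.8 and 35.4 TPM in A549-GFP and 45.3, 41.6 and 33.7 TPM in A549-TIPARP, and the lines overlapped.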

How the data were processed

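RNA-seq libraries of A549-GFP and A549-TIPARP cells, 3 per line, were compared. Groups and replicate numbers come from the sample titles, which number experiments. Nothing says that the libraries come from separate cultures, so p-values measure only the spread between these libraries. The authors used Strand NGS at default settings to align paired-end reads of poly(A)-selected stranded libraries to the hg38 transcriptome and deposited the log2 TPM of each entry, with TPM below 1 listed as 1. The software version, the annotation, the use of strand and the handling of multi-mapped reads are not given in the sources used here. No counts were used and the depth is unknown.

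Entries with TPM above 2 in at least 1 of 6 libraries were analysed, as in the study's methods. The deposited log2 TPM was turned back to TPM, 1 was added as a pseudocount, and limma 3.58.1 (R 4.3.3) with a variance trend and no block was run on log2(TPM + 1), with Benjamini-Hochberg adjustment over all 13181 entries. The log2(TPM + 1) scale understates changes of low genes. With 3 libraries against 3, an exact permutation test cannot give a two-sided p below 0.1, so none was used. Members and lists were chosen with earlier results of these data known. Named are the 10 most abundant members, those past 2-fold with their nearest coding genes, those with an unadjusted p under 0.05, a set list of members with known roles, and 3 on each side of the limit. Genes outside this rule, among them the adjacent members and their neighbours, were chosen after their values were seen.

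Members were matched to RefSeq (GRCh38.p14) by Entrez Gene ID, with coordinates for 167 of 168, and to GENCODE 44 for exons and transcript length, for 156. Promoter windows were found for 129. Libraries of the same number deviated from their line means with correlations of 0.41, -0.49 and -0.36. The highest, 0.60, was that of A549-GFP replicate 2 with A549-TIPARP replicate 3. Such deviations from means of 3 libraries cannot show whether libraries of the same number share an experiment, so the block was kept as an alternative. Alternatives were pseudocounts of 1 and 0.1 for the fold, a filter of TPM above 2 in at least 3 libraries or none, median-ratio rescaling, no trend, the replicate block, limits of 1 and 5 TPM for members, and each library left out in turn. Choosing the members without A549-GFP replicate 2, and the values of lists, classes and neighbours without it, were added after the data were seen.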

Additional observations from a re-analysis of the deposited data

How the results depend on the processing

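The number of LINC members more than 2-fold higher, 6 with all libraries, was 1 with a pseudocount of 1, 3 with a pseudocount of 0.1 and 2 among members above 5 TPM, and ranged from 2 (without A549-TIPARP replicate 3) to 9 (without A549-GFP replicate 2) with each library left out. The number more than 2-fold lower, 2 with all libraries, was 0 with a pseudocount of 1, 1 with TPM above 2 in at least 3 libraries and 0 with members chosen without A549-GFP replicate 2, an alternative added after the data were seen, and ranged from 0 (without A549-GFP replicate 2) to 4 (without A549-GFP replicate 3) with each library left out. Higher members with an unadjusted limma p under 0.05, 9 with all libraries, numbered 5 with TPM above 2 in at least 3 libraries and 5 (without A549-GFP replicate 1 or A549-TIPARP replicate 3) to 19 (without A549-GFP replicate 2) with each left out. Lower members with such a p, 0 with all libraries, numbered 1 after median-ratio rescaling, 2 with no filter and 0 to 6 with each left out, 6 without A549-GFP replicate 3. For these counts the cause was not tested. No member passed an adjusted p of 0.05 under any alternative run. The median difference of the members ranged from -0.23 to 0.14 with each library left out. With the replicate block, 7 higher members had an unadjusted p under 0.05. LINC00106 (0.0705), LINC01146 (0.0695) and LINC01270 (0.0656) then missed it and LINC01942 (0.0484) reached it, and the adjusted p of the 12 members past 2-fold or with such a p was 0.999. Whether the replicate numbers pair the libraries cannot be told here. The limma differences of these 12 kept their direction under the alternatives run. With no counts, the precision of low values cannot be computed, and the floor hides differences below 1 TPM.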

Other observations

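Members with an assigned name outside the naming rule were looked at after their values were seen. LINC01021, now PURPL, a p53-induced RNA that lowers p53, was at 7.98, 20.8 and 10.3 TPM in A549-GFP and 8.50, 9.09 and 17.1 TPM in A549-TIPARP. The snoRNA host LINC00888, now SNHG33, was at 7.73, 23.9 and 7.15 TPM in A549-GFP and 9.26, 7.73 and 11.7 TPM in A549-TIPARP. Both were highest in A549-GFP replicate 2 and next highest in A549-TIPARP replicate 3. LINC02001, now SNHG30, was at 17.6, 22.6 and 20.6 TPM in A549-GFP and 18.2, 17.3 and 11.4 TPM in A549-TIPARP, and here A549-TIPARP replicate 3 was the lowest library. LINC00319 and LINC00313, 8192 bp apart on chromosome 21, were both above the floor in A549-GFP in replicate 2 alone. LINC00313 was at 8.43 TPM there and at 1.30, 1 and 2.69 TPM in A549-TIPARP, and LINC00319 was at 1.73 TPM there and at 1.29, 1.05 and 2.06 TPM in A549-TIPARP. None of these had an unadjusted limma p under 0.05.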
